A study of Rattus norvegicus with 4 samples.

Results

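Complement is a set of blood and tissue proteins that tag and attack particles, microbes and damaged cells. The 9 genes described here are C1qa, C1qb, C1qc, C1s, C2, C3, Cfb, Cfd and Serping1, taken because the array platform's annotation gives one of these symbols to a feature. All 9 were found among 19868 named genes, on 39 of 36191 named features. They were measured in cultured ventricular cardiomyocytes of Sprague-Dawley rats, isolated at postnatal day 3. Cells of both groups were held for 48 h in 5% horse serum with 20 µM cytosine arabinoside, an inhibitor of DNA synthesis, and were then infected for 48 h with adenovirus. The virus carried Smyd2, a lysine methyltransferase, or, as the control, LacZ, which encodes the bacterial enzyme beta-galactosidase. Each group held 2 samples, each on its own single-colour array, and the series design calls them biological replicates. The sample titles of both groups also begin with siScr. What this term stands for, and whether any culture was given a small interfering RNA as well, was not settled from the labels.

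In the classical pathway, C1q binds an antibody or a damaged surface and switches on the proteases C1r and C1s. These cut C4 and C2 into an enzyme that cleaves C3, the protein on which all pathways converge. Factor B (Cfb) and factor D (Cfd) build the corresponding enzyme of the alternative pathway, and the C1 inhibitor (Serping1) blocks C1r and C1s. The liver makes most of the circulating components, macrophages are the main source of C1q, and fibroblasts and other tissue cells can make C1r, C1s, C3 and the C1 inhibitor.

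Promoters are shown for C1qa and C1qb, the genes among those available whose windows held a motif that was searched for. Each feature of C1qa and C1qb had a higher mean on the arrays labelled Smyd2, as did each of the 10 features of Cfd. The groups overlapped on 8 of 10 C1qa and 3 of 10 C1qb features, and neither gene passed the test below. In the rat reference annotation C1qb, C1qc and C1qa follow each other on chromosome 5 with no other protein-coding gene between them, and C2 and Cfb are likewise neighbours on chromosome 20. RefSeq's table for build GRCr8 held promoters of 4 of the 9 genes, C1qa, C1qb, C3 and Cfd, each with 250 bases before and 50 after the gene's start. The C1qa window lies at chr5:154419884-154420183 and the C1qb window at chr5:154407778-154408077, both on the minus strand. Capitals mark a STAT-type motif (TTCNNNGAA) in C1qa and an NF-kappa-B motif in C1qb.
C1qa: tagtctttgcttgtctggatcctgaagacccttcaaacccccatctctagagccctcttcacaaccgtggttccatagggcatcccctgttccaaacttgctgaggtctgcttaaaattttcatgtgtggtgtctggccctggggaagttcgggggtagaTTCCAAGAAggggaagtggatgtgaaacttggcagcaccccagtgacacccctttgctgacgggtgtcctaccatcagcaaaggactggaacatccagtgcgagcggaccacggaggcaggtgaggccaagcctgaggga
C1qb: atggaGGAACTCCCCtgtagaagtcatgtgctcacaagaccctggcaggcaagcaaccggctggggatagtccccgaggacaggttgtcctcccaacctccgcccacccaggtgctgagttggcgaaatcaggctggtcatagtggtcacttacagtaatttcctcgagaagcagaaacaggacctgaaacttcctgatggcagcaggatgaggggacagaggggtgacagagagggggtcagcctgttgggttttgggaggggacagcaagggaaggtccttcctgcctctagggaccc

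The STAT-type motif began 90 bases before the start of C1qa and the NF-kappa-B motif 245 bases before the start of C1qb, with both strands searched. Of 33469 rat promoters of the same length, 8.87% held the STAT-type motif and 7.51% the NF-kappa-B motif. The interferon-response motif (GAAA, 2 further bases and GAAA again), held by 3.92% of promoters, was not among the letters of the C1qa, C1qb, C3 or Cfd windows. None of the 3 motifs was found in the C3 and Cfd windows. No overlap between motifs occurred in these windows, and a match is a description of letters only.

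The single Smyd2 feature read 8.92 and 8.42 log2 units on the arrays labelled Smyd2, against 8.72 and 8.86 on the beta-galactosidase arrays. It was therefore not higher on the arrays labelled Smyd2, and every direction below rests on the labels. The position of that probe on the transcript was not used here. All intensities are on the log2 scale as deposited, and the median feature of every array lay at 4.70. The table carries no detection flags, so a group mean under 5 is called dim, and a difference that involves a dim group may understate the change. In bulk cultures fewer cells of a type and less RNA per cell cannot be told apart.

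Of the 9 complement genes, 8 had a higher mean on the arrays labelled Smyd2 and 1, C3, a lower one. The median log2 difference over the 9 was 1.02, beside 0.011 over all genes. In 4 genes (C1s, Serping1, Cfd and Cfb) both arrays labelled Smyd2 read above both beta-galactosidase arrays, which was the case for 21.9% of all genes. In none of the 9 did both read below both controls, as 20.8% of all genes did. None of the 9 passed limma's test with Benjamini-Hochberg adjustment over all genes at 0.05, and neither did any other gene (0%), while 2363 genes had an unadjusted p under 0.05. When limma modelled a trend of the spread with intensity and a robust prior, 383 genes passed, none of the 9 among them. At an unadjusted p under 0.05, C1s and Cfd were higher, against 5.51% of all genes in that direction. The number of arrays limits the precision: for 1 gene the smallest p that exact permutation of 2 and 2 arrays allows is 0.333.

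**Figure D1:**
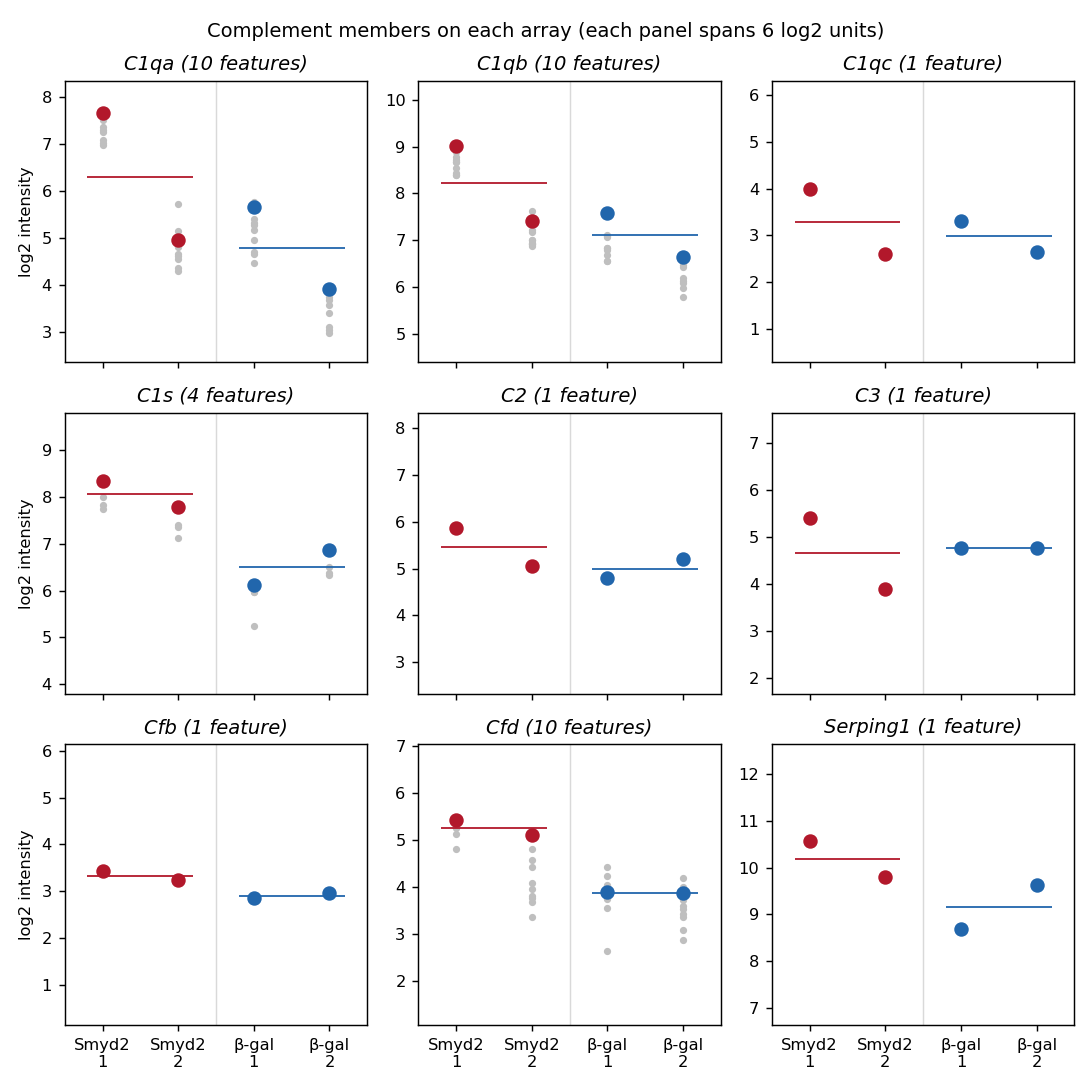
Log2 intensity of the 9 complement genes on each of the 4 arrays, the arrays labelled Smyd2 at the left and the beta-galactosidase arrays at the right of each panel. Large points are the feature used for the gene, small grey points its other features and bars the group means; Smyd2 replicate 1 is the highest array in all 9 panels.

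On Smyd2 replicate 1 all 9 genes had their highest value of the 4 arrays, while 24.6% of all genes did. The median of the 9 genes, each taken relative to its own mean over the arrays, lay at 0.85 on Smyd2 replicate 1 and −0.18 on Smyd2 replicate 2. On beta-galactosidase replicates 1 and 2 it lay at −0.27 and −0.42. The difference of C1qa was 1.51 with that array and 0.16 when it was left out, and that of C1qb 1.11 and 0.31. The median difference over the 9 genes was 0.31 when that array was left out and 1.40 when Smyd2 replicate 2 was left out.

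C1qa encodes the A chain of C1q, the recognition protein of the classical pathway. Its brightest feature read 7.66 and 4.95 on the arrays labelled Smyd2, against 5.67 and 3.92 on the beta-galactosidase arrays. The groups overlapped, since beta-galactosidase replicate 1 read above Smyd2 replicate 2, and the mean of the beta-galactosidase arrays (4.79) was dim. C1qa differed by 1.51 log2 units (SE 1.04, 95% interval −1.17 to 4.20, limma adjusted p = 0.645). That value was 0.16 when Smyd2 replicate 1 was left out and 2.87 when Smyd2 replicate 2 was. Leaving out a control array gave 2.39 (replicate 1) and 0.64 (replicate 2).

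All 10 features that name C1qa had a higher mean on the arrays labelled Smyd2, with differences from 1.14 to 2.62. Their mean was 7.36 on Smyd2 replicate 1 and 4.81 on Smyd2 replicate 2. On beta-galactosidase replicates 1 and 2 it was 5.14 and 3.51. Within an array the SD over the 10 features was between 0.27 and 0.44. The 2 arrays labelled Smyd2 differed by 2.55 and the 2 beta-galactosidase arrays by 1.63, so that cultures of a group differed far more than the features did. In 2 of the 10 features the groups did not overlap. Whether these features are 1 probe printed repeatedly was not analysed here, and they are not replicates of the condition.

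C1qb encodes the B chain. Its brightest feature read 9.01 and 7.41 on the arrays labelled Smyd2, against 7.58 and 6.64 on the beta-galactosidase arrays. The order of the arrays was that of C1qa, with beta-galactosidase replicate 1 between the 2 arrays labelled Smyd2. C1qb differed by 1.11 log2 units (SE 0.63, 95% interval −0.51 to 2.72, adjusted p = 0.572). Leaving out Smyd2 replicate 1, Smyd2 replicate 2 or beta-galactosidase replicate 2 gave 0.31, 1.90 and 0.63. Each of its 10 features read higher on average on the arrays labelled Smyd2, by 1.11 to 1.47, and in 7 of them the groups did not overlap. The overlap of the brightest feature is thus not shared by most of the others. Averaged over the 10 features, C1qb read 8.65 and 7.11 on the arrays labelled Smyd2, against 6.92 and 6.30 on the beta-galactosidase arrays. With that average the difference was 1.27 and its adjusted p was 0.463.

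C1qc, the gene of the C chain, has 1 named feature, which was dim in both groups. It read 3.99 and 2.59 on the arrays labelled Smyd2, against 3.31 and 2.65 on the beta-galactosidase arrays, and the groups overlapped. Its difference of 0.31 (SE 0.54, 95% interval −1.07 to 1.69) was smaller than its spread between replicates, and without Smyd2 replicate 1 it was −0.39.

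C1s, the protease that C1r activates, was the classical pathway member whose groups stood most clearly apart. Its brightest feature read 8.35 and 7.79 on the arrays labelled Smyd2, against 6.12 and 6.86 on the beta-galactosidase arrays, with no overlap. C1s thus differed by 1.57 log2 units, or 2.98-fold (SE 0.37, 95% interval 0.63 to 2.52, limma unadjusted p = 0.00794, adjusted p = 0.260). Its 4 features differed by 1.28 to 1.79, and the groups did not overlap in any of the 4. Leaving out each array in turn kept the difference between 1.20 and 1.95. Under the trend with a robust prior its adjusted p was 0.0709.

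C2, the protease precursor that C1s cuts, read 5.86 and 5.05 on the arrays labelled Smyd2, against 4.79 and 5.20 on the beta-galactosidase arrays. Smyd2 replicate 2 lay between the 2 beta-galactosidase arrays, so the groups overlapped. The mean of the beta-galactosidase arrays (4.99) was just within the dim range. The difference of 0.46 (SE 0.36, 95% interval −0.47 to 1.39) did not pass, and without Smyd2 replicate 1 it was 0.05.

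Serping1 encodes the C1 inhibitor, which also blocks proteases of the contact and clotting systems. It read 10.57 and 9.80 on the arrays labelled Smyd2, against 8.70 and 9.63 on the beta-galactosidase arrays. The groups did not overlap, although Smyd2 replicate 2 and beta-galactosidase replicate 2 were close. Serping1 differed by 1.02 log2 units, or 2.03-fold (SE 0.44, 95% interval −0.12 to 2.16, unadjusted p = 0.0694 by limma, adjusted p = 0.462). Leaving out a control array gave 0.55 (replicate 1) and 1.48 (replicate 2). C1s, its inhibitor and Cfb had the same order of arrays, with beta-galactosidase replicate 2 above replicate 1. The controls had that order in 4 of the 9 genes and in 51.2% of all genes. C1qa and C1qb had the opposite order within the controls.

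C3, the central protein of the cascade, was dim in both groups on its single feature. It read 5.41 and 3.90 on the arrays labelled Smyd2, which enclosed the values of 4.77 and 4.76 on the beta-galactosidase arrays. C3 differed by −0.11 (SE 0.53, 95% interval −1.46 to 1.25, limma adjusted p = 0.961). That value was 0.65 when Smyd2 replicate 2 was left out and −0.86 when Smyd2 replicate 1 was, so these arrays fix no direction for C3.

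Cfb, the protease precursor of the alternative pathway, read 3.43 and 3.24 on the arrays labelled Smyd2, against 2.85 and 2.96 on the beta-galactosidase arrays. All 4 values were dim, and the difference of 0.43 (SE 0.23, 95% interval −0.17 to 1.03) between groups that did not overlap did not pass. Its neighbour C2 differed by about as much, at 0.46, with overlap.

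Cfd encodes factor D, the protease that cuts factor B and that fat cells release as adipsin. Its brightest feature read 5.42 and 5.10 on the arrays labelled Smyd2, against 3.89 and 3.86 on the beta-galactosidase arrays, which were dim. Cfd differed by 1.39 log2 units (SE 0.25, 95% interval 0.76 to 2.02, limma unadjusted p = 0.00241, adjusted p = 0.198). The 10 features of Cfd differed by 0.29 to 1.68, all with a higher mean on the arrays labelled Smyd2, and in 4 of them the groups overlapped. Averaged over the 10, Cfd read 5.28 and 4.16 on the arrays labelled Smyd2, against 3.83 and 3.56 on the beta-galactosidase arrays. The difference was then 1.03, with a limma unadjusted p = 0.0532 and adjusted p = 0.433. Choosing the brightest feature took one on which Smyd2 replicate 2 read 5.10, the highest of the 10 features there.

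**Figure D2:**
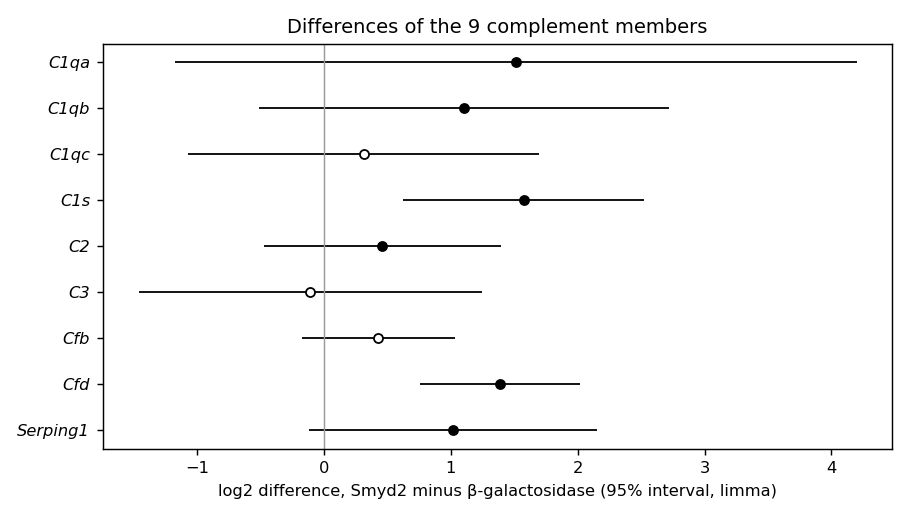
Log2 difference of each complement gene, arrays labelled Smyd2 minus beta-galactosidase arrays, with limma's 95% interval; open points are dim in both groups. Only the intervals of C1s (0.63 to 2.52) and Cfd (0.76 to 2.02) lie above 0, before any adjustment for the number of genes.

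Beside these 9, 43 other genes of the complement system were measured. On the arrays labelled Smyd2 the mean was higher for 28 and lower for 15 of them, and the median log2 difference was 0.17. At an unadjusted p under 0.05, 7 were higher and 5 lower, against 5.51% and 6.39% of all genes, and none passed after adjustment. In 28 of the 43 both group means were dim.

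Genes that start the cascade had the highest median of the 4 roles, at 0.68. In that group 12 of 14 were higher and 2 lower. At an unadjusted p under 0.05, 5 were higher and 0 lower, against 5.51% and 6.39% of all genes. Both group means were dim in 8 of the 14. C1r, the partner of C1s and its neighbour on chromosome 4, read 12.44 and 12.26 on the arrays labelled Smyd2, against 11.12 and 10.81 on the beta-galactosidase arrays. Replicates were close and the groups well apart, with a difference of 1.39 (SE 0.25, 95% interval 0.74 to 2.03, adjusted p = 0.201). All 10 features of C1r separated the groups, with differences between 1.28 and 1.53. Under an intensity trend with a robust prior C1r passed limma's test (adjusted p = 0.0122).

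Colec11, a collectin that can start the lectin pathway, read 9.40 and 9.25 on the arrays labelled Smyd2, against 6.48 and 7.88 on the beta-galactosidase arrays. Its difference of 2.14 (SE 0.50) had a limma adjusted p = 0.257, and 0.0476 under the trend with a robust prior. Ptx3, a pentraxin that binds C1q, differed by 0.93 (SE 0.26). C4b read 6.82 and 5.31 on the arrays labelled Smyd2, against 3.96 and 4.72 on the beta-galactosidase arrays, which were dim. C4a, its near-identical copy, was dim throughout and differed by 1.09, and cross-hybridisation between the 2 copies was not tested. Fcnb, a ficolin of the lectin pathway, was dim in both groups and differed by 0.90. The groups did not overlap, and it did not pass.

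Genes of the terminal complex, which makes the membrane pore, were dim in both groups in 6 of 7 cases counted with C5 and properdin. The median difference of the 7 was 0.05. C8g, the gamma chain of C8 and the exception, read 5.81 and 5.68 on the arrays labelled Smyd2, against 5.12 and 6.04 on the beta-galactosidase arrays, with overlap. Cfp, which encodes properdin, the stabiliser of the alternative pathway, differed by −0.70 (SE 0.22) at dim levels. C9, the pore-forming unit, differed by 0.62 and C8b by −0.45, both dim in both groups. C5 and C6 differed by −0.38 and 0.11 and overlapped between groups.

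Of 14 regulators 8 were higher and 6 lower on average. At an unadjusted p under 0.05, 4 were lower and 0 higher, against 6.39% and 5.51% of all genes. Clu (clusterin), which binds the assembling terminal complex, read 11.76 and 11.62 on the arrays labelled Smyd2, against 12.57 and 13.47 on the beta-galactosidase arrays. The difference was −1.33 (SE 0.37, limma adjusted p = 0.308), and leaving out each array in turn gave −1.78 to −0.88. Cd55, which breaks up the C3-cleaving enzymes at the cell surface, differed by −0.64 (SE 0.24). Cd59b, whose product blocks the membrane pore, differed by −0.63 (SE 0.24). C4bpb was dim in both groups and differed by −1.03. Cr1l, the rodent surface regulator also known as Crry, differed the other way, by 0.49 (SE 0.26), with no overlap between the groups. Cpn2, a subunit of the carboxypeptidase that trims complement peptides, was dim and differed by 0.51.

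Among 8 receptors and binding proteins, 4 were higher and 4 lower on average, and the median difference was 0.16. Leaving out an array labelled Smyd2 gave 0.02 (replicate 1) or 0.32 (replicate 2), and the median was 0.37 when the control array of replicate 1 was left out. Cd93, a lectin of endothelial and myeloid cells that was first described as a C1q receptor, had the largest difference of the 43, at 2.68 (SE 0.25). It read 10.10 and 9.75 on the arrays labelled Smyd2, against 7.32 and 7.18 on the beta-galactosidase arrays (limma adjusted p = 0.154). Itgb2, the shared beta chain of the leukocyte complement receptors, read 6.78 and 5.95 on the arrays labelled Smyd2, against 5.56 and 5.11 on the beta-galactosidase arrays. Its partner Itgam overlapped between groups and differed by 0.37. C5ar2 and C5ar1, receptors for the C5a peptide, were dim in both groups and differed by −0.81 and 0.75. C1qbp, a mostly mitochondrial protein that binds C1q, differed by −0.27, and its 10 features by −0.36 to −0.27.

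**Figure D3:**
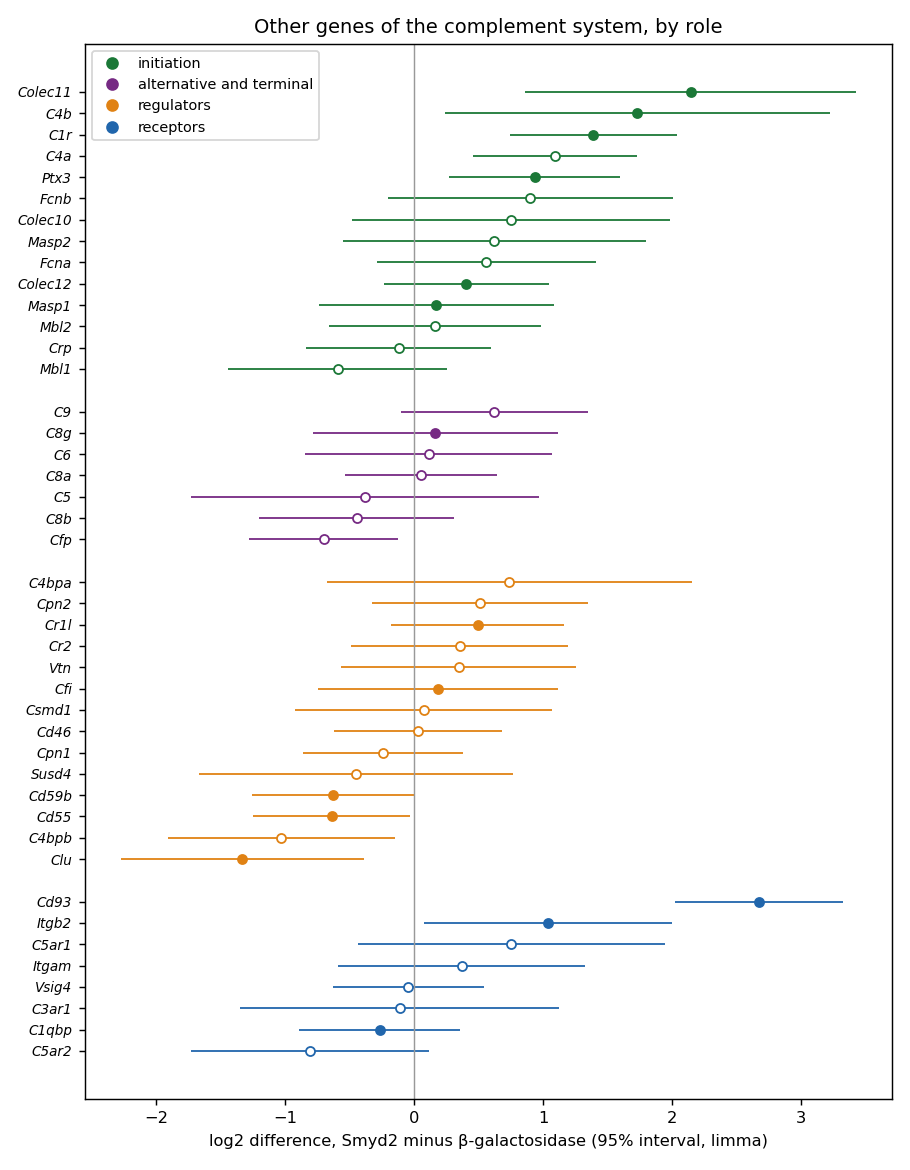
Log2 difference of 43 other complement genes by role, arrays labelled Smyd2 minus beta-galactosidase arrays, with limma's 95% interval; open points are dim in both groups. The intervals of Colec11, C4b, C1r, C4a and Ptx3 lie above 0 among the starting genes, and those of Clu, C4bpb, Cd55 and Cd59b below 0 among the regulators. That of Cfp lies below 0 in the terminal group, and those of Cd93 and Itgb2 above 0 among the receptors.

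Markers of other cells moved between the same groups, and their part in the complement differences was not tested. Macrophage and leukocyte markers were higher on the arrays labelled Smyd2 in 17 of 19 genes, and their median difference was 1.07. At an unadjusted p under 0.05, 5 of the 19 were higher, against 5.51% of all genes. Leaving out an array labelled Smyd2 gave a median of 0.66 (replicate 1) or 1.74 (replicate 2), and leaving out a control array gave 1.68 (replicate 1) or 0.68 (replicate 2). Their summed intensity on the linear scale was 17530 and 7064 on the arrays labelled Smyd2, against 5336 and 2690 on the beta-galactosidase arrays. The lysozyme gene Lyz2 alone made up 52.7% to 65.1% of the sum on each array. The sum of the other 18 was 6120 and 2834 on the arrays labelled Smyd2, against 2526 and 1231 on the beta-galactosidase arrays. The defining marker Ptprc, the pan-leukocyte phosphatase, was dim on the beta-galactosidase arrays at 3.51 and 3.52, against 5.88 and 4.95 on the arrays labelled Smyd2. Cd68, a lysosomal protein of macrophages, read 8.44 and 7.21 on the arrays labelled Smyd2, against 7.25 and 5.27 on the beta-galactosidase arrays. Csf1r, the macrophage growth factor receptor, was dim in both groups and differed by 0.21. Fcer1g, an antibody receptor chain, and Lyz2 differed by 1.93 and 1.78.

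Fibroblast and matrix markers had a higher mean on the arrays labelled Smyd2 in 17 of 18 measured genes. At an unadjusted p under 0.05, 7 were higher, against 5.51% of all genes. The remaining marker, Col1a1, was at the top of the scale on all 4 arrays, so no difference can be read. The median over the 17 was 0.84. Over all 18 it was 0.81, and 0.39 without beta-galactosidase replicate 1. Their summed intensity was 291600 and 265300 on the arrays labelled Smyd2, against 205100 and 250100 on the beta-galactosidase arrays. Pdgfra, the receptor that marks cardiac fibroblasts, read 8.72 and 8.58 on the arrays labelled Smyd2, against 7.76 and 6.56 on the beta-galactosidase arrays. Dcn, the matrix proteoglycan decorin, read 9.40 and 8.84 on the arrays labelled Smyd2, against 6.49 and 9.26 on the beta-galactosidase arrays, with overlap. Fbn1, Mfap4 and Col6a2 differed by 0.97, 1.65 and 0.84.

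Cardiomyocyte markers had a lower mean on the arrays labelled Smyd2 in 15 of 16 measured genes, with a median of −2.17 over the 15. The other one, Actc1 (cardiac actin), was at the top of the scale on all 4 arrays, and Atp2a2, the calcium pump, overlapped between the groups with a difference of −0.06. At an unadjusted p under 0.05, 13 of the 16 were lower, against 6.39% of all genes. The defining members were far above the dim range in both groups. Actn2, the Z-disc actinin, read 8.49 and 8.28 on the arrays labelled Smyd2, against 10.34 and 10.80 on the beta-galactosidase arrays. Tnnt2 and Myh6, cardiac troponin T and a myosin heavy chain, were at the top of the scale on the beta-galactosidase arrays, so their differences of −0.54 and −1.17 are bounds. Tnni3, Myl3 and Tnnc1 differed by −2.17, −2.22 and −2.16. On the beta-galactosidase arrays Myl3 (15.62 and 15.83) and Tnnc1 (15.57 and 15.89) read close to the top of the scale. The differences of Myl3 and Tnnc1 may therefore be understated. Myl2 was at the top on the beta-galactosidase arrays as well, and it counts in the median of −2.17. Endothelial markers were higher in 7 of 12 genes, with a median of 0.19, and none had an unadjusted p under 0.05. Of the defining ones Pecam1 differed by 0.34, Cdh5 by 0.50 and Kdr by −1.51, all with overlap, and Esam and Emcn differed by 0.67 and −0.71.

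Interferon-induced genes were higher in 25 of 27 cases, with a median of 1.47. That median was 0.91 without Smyd2 replicate 1. At an unadjusted p under 0.05, 17 of the 27 were higher, against 5.51% of all genes. Bst2, an antiviral membrane protein, read 11.85 and 9.92 on the arrays labelled Smyd2, against 7.39 and 5.78 on the beta-galactosidase arrays. Psmb8, a proteasome subunit, and Ifih1, an RNA sensor, differed by 2.10 and 1.49. Smyd2 replicate 1 was the highest array in 24 of 27, beside 24.6% of all genes. It was the highest in 15 of 19 macrophage and leukocyte markers, 12 of 18 fibroblast and matrix markers and 16 of the 43 other complement genes. Among endothelial markers it was the highest in 3 of 12, and among cardiomyocyte markers in 0 of 16. Of 17 acute phase and cytokine genes, which include known inducers of complement genes, 12 were higher and 5 lower, and the median was 0.18. At an unadjusted p under 0.05, 2 of them were higher and 1 lower, against 5.51% and 6.39% of all genes. Smyd2 replicate 1 was the highest array in 6 of the 17. Il6st, the receptor subunit that carries the interleukin-6 signal, differed by 1.18 (SE 0.25), and the transcription factor Cebpd by 0.70 (SE 0.24). Il6 itself was dim in both groups and differed by −0.78, and Il1b, Tnf and Ifng overlapped between the groups.

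**Figure D4:**
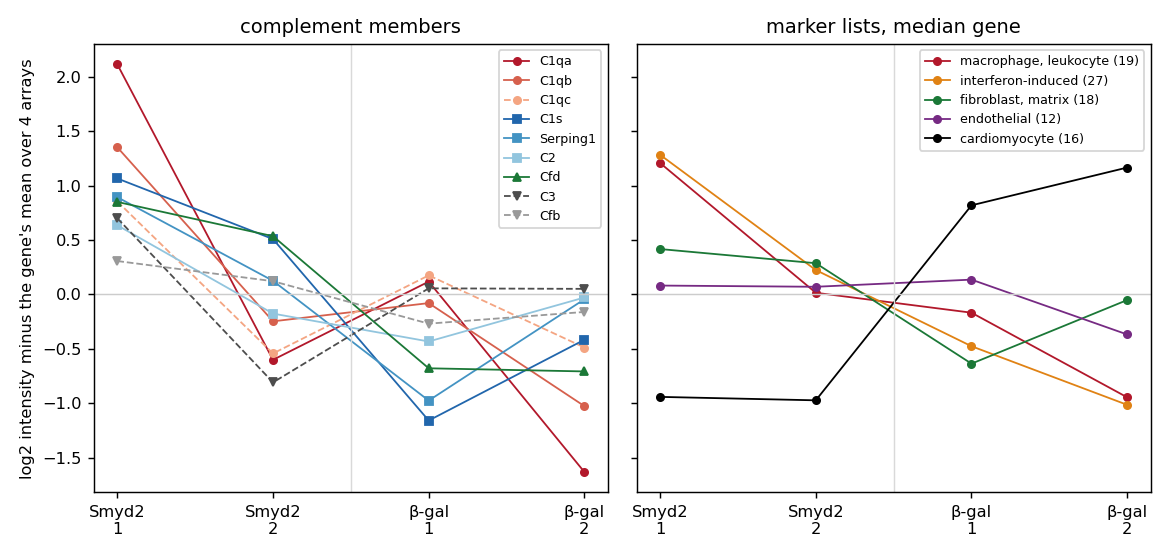
Log2 intensity on each array minus the gene's own mean over the 4 arrays, for the 9 complement genes (left). For 5 lists (right) the median over the genes of the list is shown, taken on each array. The arrays labelled Smyd2 are left of the beta-galactosidase arrays. Beta-galactosidase replicate 2 is above replicate 1 in C1s, Serping1, C2 and Cfb, 4 of the 9 genes, beside 51.2% of all genes. The other 5, C1qa and C1qb among them, have the opposite order within the controls. Lines only join values of 1 gene or list.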

How the data were processed

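The deposited table holds log2 intensities of 62976 features on 4 single-colour arrays. The log2 unit was read from the values, whose quartiles are shared by all arrays, as quantile normalization by the authors would leave them; the submitters' processing notes name limma, and background correction is not given in the sources used here. Platform annotation named 36191 features, 0 with several symbols, and 26785 were not named. Accessions (28236 features) or older symbols (457) were matched to RefSeq's rat gene table. Each of 19868 genes was represented by its brightest feature on average. Groups (2 arrays each) came from the sample titles. The model was limma's (version 3.58.1, R 4.3.3; lmFit, eBayes, no trend, no block, two-sided, 2 residual degrees of freedom, prior 3.01), adjusted over all genes, and checked on simulated data. Genes named are all members, up to 6 of each group of other complement genes and up to 3 of each marker list by size of the moderated statistic, plus the defining markers; Atp2a2, Il1b, Tnf and Ifng were named after their values were seen. The members and lists were chosen with earlier results of these data known. Alternatives were repeated quantile normalization, median centring, leaving out dim genes (mean under 5), an intensity trend with a robust prior, a replicate block, all features of a gene, and leaving out each array.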

Additional observations from a re-analysis of the deposited data

How the results depend on the processing

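None of the 9 complement genes passed limma's adjusted test under any alternative tried, and repeated quantile normalization and median centring turned no direction among them. Over all genes 383 passed under an intensity trend with a robust prior, 95 higher and 288 lower, against 0 in the fit reported; at an unadjusted p under 0.05 the fit reported gave 2363 genes, every feature on its own 4346 features, and leaving out arrays 1149 to 3151 genes. Leaving out each array turned C1qc to −0.39 (Smyd2 replicate 1) and −0.02 (beta-galactosidase replicate 2), within a range of −0.39 to 1.01, and C3 to 0.65 (Smyd2 replicate 2), within −0.86 to 0.65. It gave 7 to 9 genes higher of the 9 and a median of 0.31 to 1.40. With dim genes left out, 5 of the 9 were measured, all 5 higher. The median of the other complement genes was 0.45 without dim genes and 0.036 to 0.23 over left-out arrays. Among them the starting genes had 1.16 without dim genes and 0.57 to 0.95 over left-out arrays. The receptors had 1.03 without dim genes and 0.02 to 0.37 over left-out arrays. That 1.03 was the value of Itgb2, the middle one of the 3 receptors left. The terminal group had −0.30 to 0.13 over left-out arrays. The regulators had −0.64 without dim genes, with only Clu, Cr1l, Cd55 and Cd59b left. Their median was −0.17, −0.0038 and −0.013 without Smyd2 replicate 1 and beta-galactosidase replicates 1 and 2 (highest 0.10). Over left-out arrays, medians ran from 0.66 to 1.74 for macrophage markers, 0.91 to 1.84 for interferon-induced genes, 0.39 to 1.08 for fibroblast markers, −2.26 to −1.86 for cardiomyocyte markers, −0.0047 to 0.43 for endothelial markers and −0.11 to 0.42 for the acute phase list, which was −0.11 without Smyd2 replicate 1 and −0.095 without beta-galactosidase replicate 2. C1r, Colec11 and Cd93 passed with the trend and robust prior (1.39, 2.14 and 2.68).

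With the replicate number of the titles as a block, 0 genes passed and 2251 had an unadjusted p under 0.05. C1qa (difference 1.51) then had a limma unadjusted p = 0.0071 (adjusted p = 0.249), against 0.207 without the block. C1qb (1.11) had a limma unadjusted p = 0.0162 (adjusted p = 0.320), against 0.139 without the block. With the block, limma's unadjusted p was 0.0103 for C1s and 0.00437 for Cfd. The deviations of same-numbered arrays had a correlation of 0.032 over genes, so the numbers are not shown to pair the samples. The cause of these changes was not tested, and some of the fits used fewer arrays or genes. With no detection flags, the signal over background of C1qc, C3 and Cfb is unknown.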
